A study of Mus musculus with 8 samples.

Results

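The miRNAs mmu-miR-126-3p, mmu-miR-126-5p, mmu-miR-143 and mmu-miR-145, written below without the species prefix, were examined as a view of the blood vessels of skeletal muscle. They are 4 of the 567 mouse miRNAs on the array. Their probes were found by name in the probe annotation, with no use of measured values. The 4 miRNAs themselves were chosen with earlier results of these data known. They were read by 8 of 1672 mouse probes and by 80 of 11340 mouse miRNA spots per array. RNA came from skeletal muscle of diabetic and control C57BL/KsJ mice, with 4 arrays per group. In the design text the diabetic animals are obese db/db mice, which lack a working leptin receptor throughout the body, and the controls are normal db+ mice; no treatment or age is given. The titles, descriptions and group entries agree on which arrays are diabetic and control, but the strain entries name the opposite genotypes (db+ on the diabetic and db/db on the control arrays). Every direction below is diabetic minus control by the titles. Nothing in the labels says whether each array came from a separate animal or from a pool, so p-values measure the spread between these arrays, which may be technical.

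miRNAs are short RNAs that pair through their seed, bases 2 to 8, with messenger RNAs and repress them. miR-126 is made in endothelial cells from an intron of Egfl7, and its 3p strand is known to strengthen VEGF signalling by repressing inhibitors of that pathway such as Spred1. miR-143 and miR-145 come from 1 long primary transcript in vascular smooth muscle cells and pericytes, where they favour the contractile state over proliferation. In a muscle extract both pairs are therefore taken here as a view of vessel cells among a majority of muscle fibres. Whether their signal came from vessel cells alone was not tested. In whole-tissue RNA, fewer vessel cells and less miRNA per cell cannot be told apart.

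The sequence of the detected endothelial strand is shown because the seed decides which messengers it can pair with. RefSeq's GRCm38.p6 table gave this strand as miR-126a-3p, at chr2:26591402-26591423 on the plus strand. Sequences of the other miRNAs examined are not shown. Capitals mark the seed in the mature strand, and the mature 3p strand in the hairpin, which lies at chr2:26591357-26591429 on the plus strand.
miR-126a-3p: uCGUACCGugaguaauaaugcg
miR-126a hairpin: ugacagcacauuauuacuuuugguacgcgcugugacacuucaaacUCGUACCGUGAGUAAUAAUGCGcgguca
The 22 bases of the 3p strand fill positions 46 to 67 of the 73-base hairpin. Of 1738 mature entries in the table, 1 had this seed, miR-126a-3p itself. In the gene table of the same assembly, Mir126a lies within the span of Egfl7, and Mir143 and Mir145a both lie within the span of the long noncoding RNA gene Carmn. These annotations are of a later build than the mm9 build that the array design names.

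The 4 miRNAs fell into a detected and an undetected partner in each pair. A probe was counted as detected on an array when at least 50% of its spots were flagged well above background. miR-126-3p and miR-143 were detected on 4 of 4 diabetic and 4 of 4 control arrays. miR-126-5p and miR-145 were detected on 0 of 8 arrays. The dimmest probe that counted as detected gave 11.5 to 17.8 intensity units on the diabetic arrays and 14.2 to 19.3 on the control arrays. It is an observed minimum, not a set threshold, and serves below only as a rough bound on intensity. Intensity also depends on the probe: the 2 probes of miR-126-3p differed by a ratio of 2.09 to 2.23 on the same array. Intensities of different miRNAs are therefore not compared as amounts, and an undetected miRNA may still be present.

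**Figure D1:**
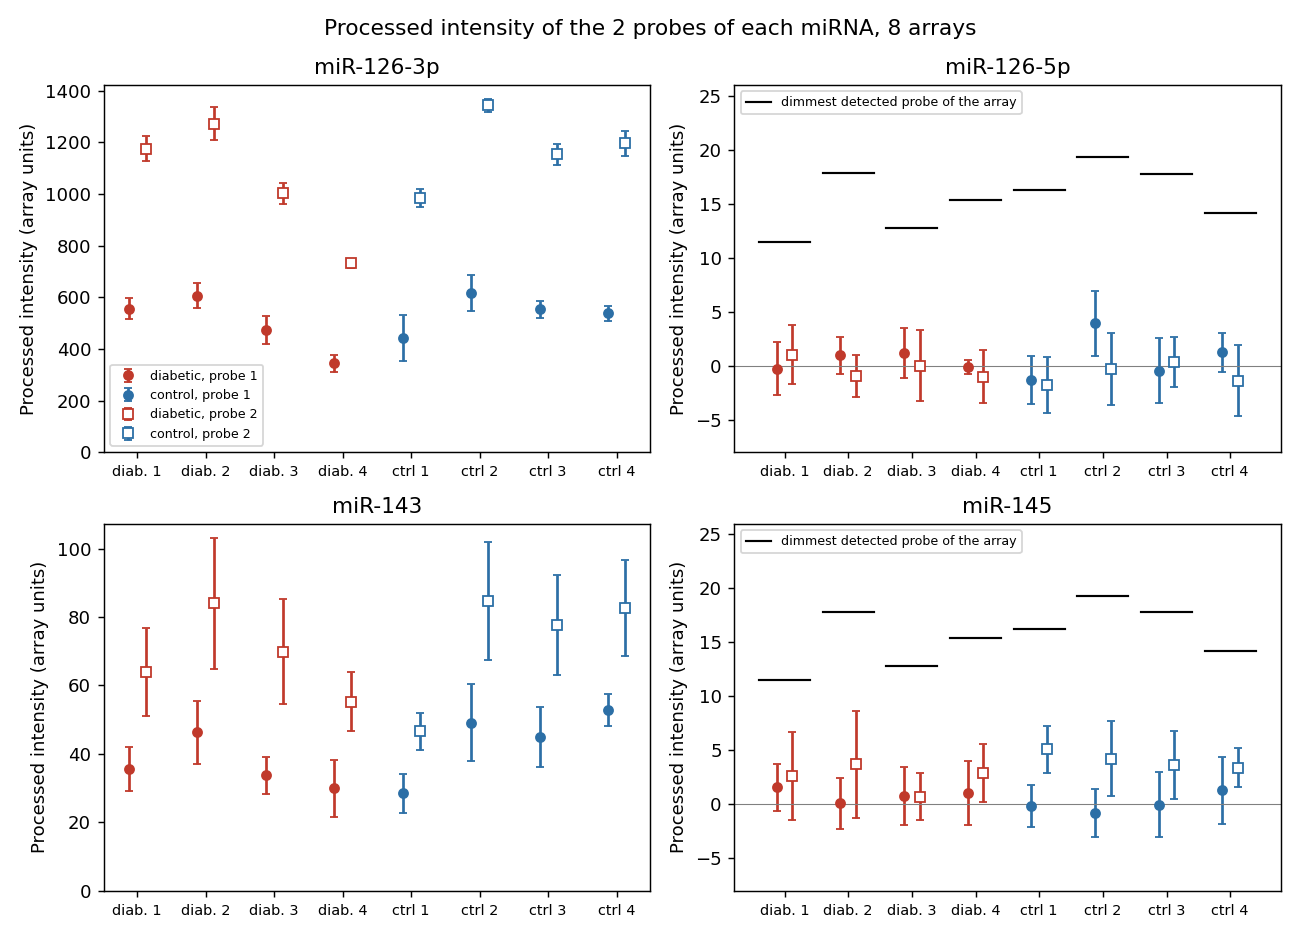
Processed intensity (array units) of both probes of each miRNA on the 4 diabetic arrays (red) and 4 control arrays (blue), as the mean and SD over the spots of a probe. miR-126-3p and miR-143 gave signal on all 8 arrays, while the probes of miR-126-5p and miR-145 stayed near 0 and under the dimmest detected probe of each array (black lines).

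miR-126-3p, the endothelial strand, was far above background on every array. Its processed intensity, averaged over its 2 probes, was 866, 939, 738 and 538 units on diabetic arrays 1 to 4, and 713, 981, 853 and 867 units on control arrays 1 to 4. The groups overlapped: the lowest value was diabetic 4 and the highest control 2, which were also the dimmest and the brightest array by the 75th percentile of detected probes (219 and 618 units). Of its 160 spots over 8 arrays, 8 were outliers, and all 152 others were well above background. The spots of 1 probe on 1 array varied by a CV of 1.87% to 20.3%.

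Divided by the array's 75th percentile, miR-126-3p had relative log2 levels of 1.27, 0.97, 0.84 and 1.29 on the diabetic arrays and 1.21, 0.67, 1.35 and 1.41 on the control arrays. Diabetic 2, diabetic 3 and control 2 were low, and the other 5 lay between 1.21 and 1.41, so the groups overlapped. The mean was 1.09 ± 0.22 on diabetic arrays and 1.16 ± 0.34 on control arrays (SD, n = 4 each; two-sided exact permutation p = 0.8). The limma log2 difference was −0.07 (SE 0.23, Benjamini-Hochberg adjusted p = 0.886), a ratio of 0.956 with a 95% interval of 0.675 to 1.35. Changes inside that interval, up or down, could not be told from none with these 8 arrays. Its probes A_54_P2285 and A_54_P2286 gave differences of −0.04 and −0.08.

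**Figure D2:**
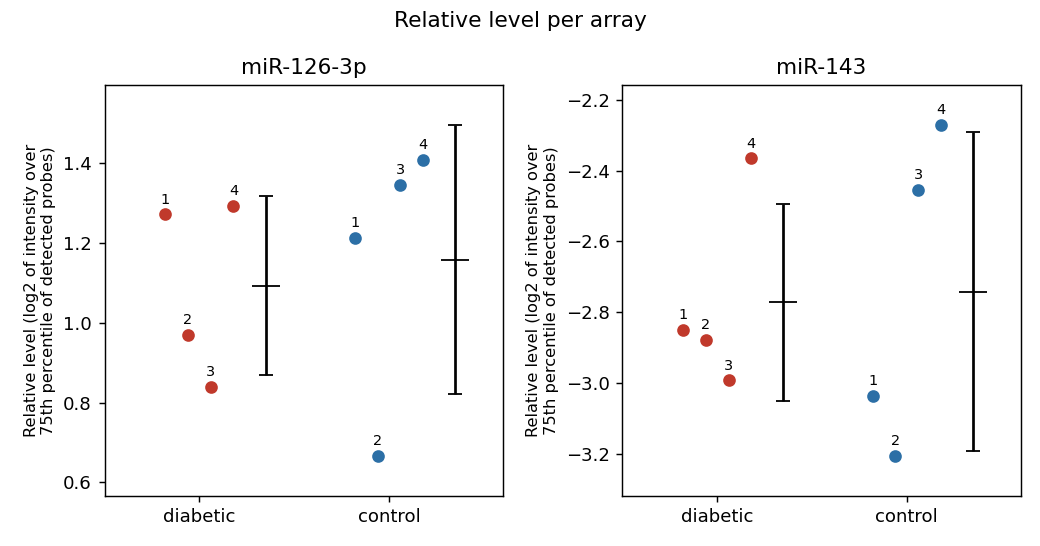
Relative log2 level (intensity over the array's 75th percentile of detected probes) of miR-126-3p and miR-143 on each of 4 diabetic (left) and 4 control (right) arrays, numbered by replicate, with the mean and SD beside them. The groups overlap for both miRNAs, and control 2 is the lowest array in both panels.

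miR-143, the smooth muscle and pericyte miRNA, was detected nearer to background. Its processed intensity was 49.8, 65.2, 51.8 and 42.6 units on diabetic arrays 1 to 4, and 37.5, 66.9, 61.3 and 67.7 units on control arrays 1 to 4. The diabetic values lay inside the range of the control values, of which control 1 was the lowest and control 4 the highest. Of its 152 spots kept, 150 were well above background, and the CV over the spots of a probe was 8.83% to 27.6%, so each value is less precise than for miR-126-3p.

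The relative log2 levels of miR-143 were −2.85, −2.88, −2.99 and −2.37 on the diabetic arrays and −3.04, −3.21, −2.45 and −2.27 on the control arrays. Diabetic 4, control 3 and control 4 were high, and the other 5 lay between −3.21 and −2.85. The mean was −2.77 ± 0.28 on diabetic arrays and −2.74 ± 0.45 on control arrays (SD, n = 4 each; two-sided exact permutation p = 0.943). The limma log2 difference was −0.03 (SE 0.26, adjusted p = 0.94), a ratio of 0.979 with a 95% interval of 0.659 to 1.45. Its probes disagreed in sign: A_54_P2404 gave −0.14 and A_54_P2405 gave 0.03.

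The undetected strands gave only a bound. miR-126-5p, the other strand of the miR-126 hairpin, averaged −0.58 to 0.59 units per array on diabetic arrays and −1.57 to 1.79 on control arrays. None of its 145 spots kept was well above background, and 7 of 71 on diabetic and 6 of 74 on control arrays had the weaker flag for a positive and significant signal. Values this close to 0 have no order and no fold was computed.

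miR-145 averaged 0.74 to 2.11 units on diabetic arrays and 1.73 to 2.50 on control arrays, with 0 of 152 spots kept well above background. Its probes differed: A_54_P2314 carried the weaker flag on 7 of 38 spots on diabetic and 5 of 36 on control arrays, and A_54_P2315 on 17 of 39 and 22 of 39. Among the 1377 mouse probes detected on no array, 7.77% had that flag as often as A_54_P2315 or more often. The means of A_54_P2315 were 2.63, 3.73, 0.74 and 2.91 units on diabetic arrays 1 to 4 and 5.13, 4.25, 3.66 and 3.42 on control arrays 1 to 4. The groups overlapped, with diabetic 2 above control 3 and control 4. Negative control spots averaged 2.21 to 4.21 units on the diabetic arrays and 2.97 to 3.78 on the control arrays (SD over spots 2.74 to 3.14 and 3.07 to 3.44). The mean of A_54_P2315 was above that of the negative control spots of its array on 2 of 4 diabetic and 3 of 4 control arrays. The other strand of the same hairpin, miR-145*, was detected on 0 of 8 arrays, and miR-143* had no probe under that name.

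Read against all miRNAs tested, neither detected miRNA stood among the changes. Of 126 miRNAs detected on at least 4 arrays, 6, or 4.76%, passed an adjusted p of 0.05 in either direction, all 6 higher on diabetic arrays. Of miR-126-3p and miR-143, 0 of 2 passed, and 0 had groups that did not overlap, against 8.73% of all tested. The median difference over the 126 was −0.06, close to the differences of −0.07 and −0.03 of these 2. Ordered by p from the smallest, miR-126-3p stood at place 111 and miR-143 at place 122 of 126. Only tested miRNAs enter these counts, so miR-126-5p and miR-145 are not among them.

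**Figure D3:**
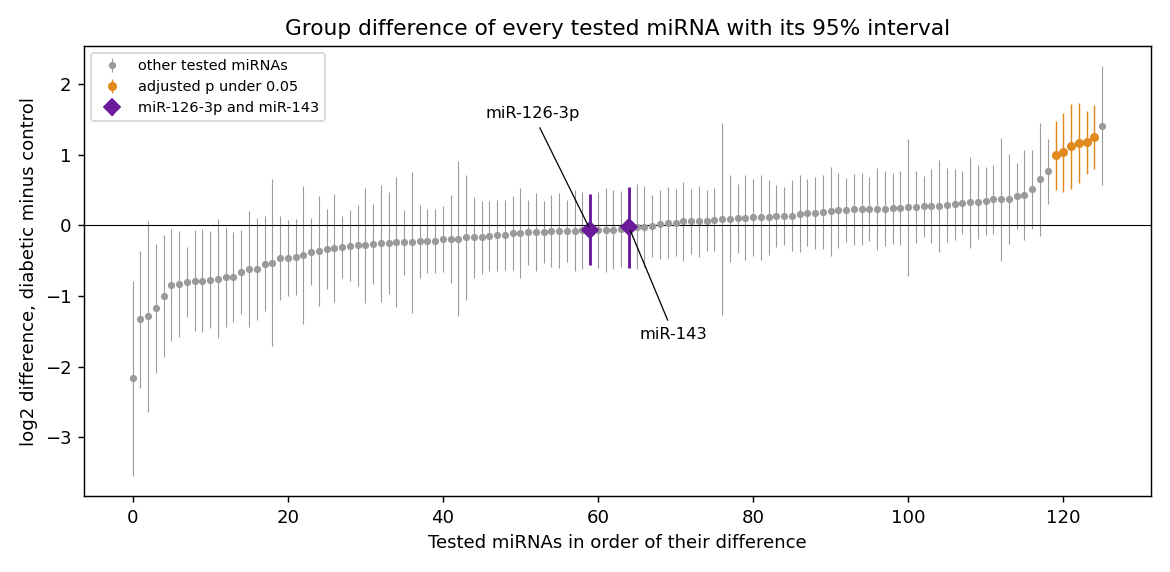
Log2 difference, diabetic minus control, of each of the 126 tested miRNAs with its 95% interval, ordered by size along the horizontal axis. miR-126-3p and miR-143 (purple) lie in the middle of the order at −0.07 and −0.03, away from the 6 miRNAs that passed the adjusted threshold (orange).

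Across arrays, the relative levels of the endothelial and the smooth muscle miRNA were high and low on many of the same arrays. Over the 8 arrays the relative log2 levels of miR-126-3p and miR-143 had Pearson's r = 0.807 (exact permutation p = 0.0195, adjusted p = 0.026) and Spearman's rho = 0.905 (exact permutation p = 0.00456, adjusted p = 0.0183), with p-values two-sided and adjusted over 4 relations. The points share a slide and each pair shares the divisor of its array. The permutation allows for neither, so its p-values cannot separate a relation of the 2 miRNAs from that sharing. Control 2 and diabetic 3 were the arrays farthest from the median of miR-126-3p. Without them, r was 0.683 (exact permutation p = 0.0944) and rho 0.886 (exact permutation p = 0.0333) over 6 arrays. Both stayed positive. With fewer arrays and a narrower range, these values cannot decide whether the linear relation rests on those 2 arrays.

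On the intensities before that division, r was 0.775 (exact permutation p = 0.0178, adjusted p = 0.026) and rho 0.833 (exact permutation p = 0.0154, adjusted p = 0.0308). Without control 1 and diabetic 4, the arrays left out by the same rule, r was 0.664 (exact permutation p = 0.156) and rho 0.657 (exact permutation p = 0.175), so neither passed. These intensities also moved with the brightness of the array: against its log2 75th percentile, miR-126-3p had r = 0.826 (exact permutation p = 0.0115, adjusted p = 0.026) and rho = 0.786 (exact permutation p = 0.0279, adjusted p = 0.0372), and miR-143 had r = 0.637 (exact permutation p = 0.0891, adjusted p = 0.0891) and rho = 0.548 (exact permutation p = 0.171, adjusted p = 0.171). Without the 2 arrays farthest from the median brightness, r was 0.422 and 0.403 (exact permutation p = 0.407 and 0.447). The part of array brightness in the relation of the 2 miRNAs was not tested. A group of 4 arrays is too few for a value of its own.

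**Figure D4:**
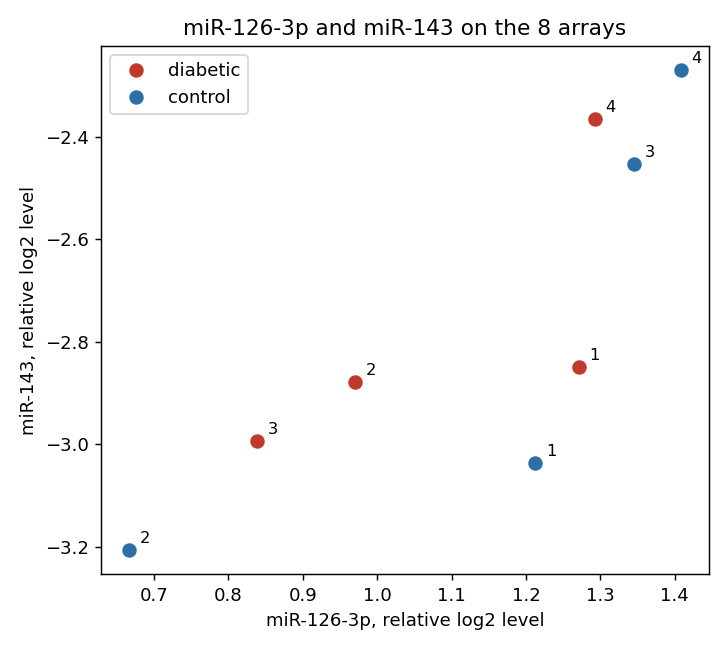
Relative log2 level of miR-143 (vertical) against miR-126-3p (horizontal) on the 4 diabetic (red) and 4 control (blue) arrays, numbered by replicate. Control 2 is lowest and control 4 highest on both axes, with arrays of both groups along the range (Spearman's rho 0.905 over 8 arrays).

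The log ratio of miR-126-3p to miR-143 within an array needs no scaling and asks whether these miRNAs changed by different amounts. Relative to its mean over the 8 arrays, the ratio stood at 1.18, 0.977, 0.965 and 0.856 on diabetic arrays 1 to 4 and at 1.29, 0.993, 0.944 and 0.868 on control arrays 1 to 4. Array 1 of each group was the highest and array 4 the lowest, and same-numbered arrays lay in the same column of the slide. The groups differed by −0.04 on the log2 scale (SE 0.16, two-sided exact permutation p = 0.83 with n = 4 each, where the smallest possible is 0.0286). Within slide columns, a comparison chosen after the data were seen, the mean difference was the same −0.04 with a smaller SE of 0.034 and was negative in 3 of 4 columns (two-sided exact sign-flip permutation p = 0.5, where the smallest possible is 0.125). The same ratio for the strands of miR-126, or for miR-143 and miR-145, could not be formed from signals above background.

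By correlation of the relative levels over the 8 arrays, among the 124 tested miRNAs outside the 4 examined, the 3 most like miR-126-3p were miR-30c-2* (r = 0.956), let-7d (r = 0.926) and miR-30d (r = 0.899). For miR-143 they were miR-30c-2* (r = 0.828), miR-10b (r = 0.825) and miR-195 (r = 0.752), the last of which is under the r of 0.807 between miR-143 and miR-126-3p. miR-30c-2* was dim, with a mean log2 level of −5.26 on diabetic and −5.20 on control arrays, where the lowest value allowed was −5.95. It was detected on 3 of 4 diabetic and 4 of 4 control arrays. These r values are the highest of 124 values over 8 points that share a slide and a divisor, and are given as a description. The group differences of these 5 miRNAs ran from −0.08 for miR-195 to 0.43 for miR-10b, and none passed the threshold. RefSeq's GRCm38.p6 table held 4 of these 5 miRNAs under their present names, shown with the seed in capitals so that they can be set beside miR-126a-3p.
miR-30c-2-3p (miR-30c-2*): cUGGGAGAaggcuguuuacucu
let-7d-5p (let-7d): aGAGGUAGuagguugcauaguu
miR-10b-5p (miR-10b): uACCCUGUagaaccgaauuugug
miR-195a-5p (miR-195): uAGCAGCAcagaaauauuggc
These lie on the plus strand at chr1:23291754-23291775, on the minus strand at chr13:48536078-48536099, and on the plus strand at chr2:74726074-74726096 and chr11:70235062-70235082. The 5 seeds, that of miR-126a-3p included, are all different, so 0 of the 4 share its seed.

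No tested member of the lists of other vessel miRNAs passed the threshold. Whether the listed miRNAs came mainly from vessel cells in this muscle was not tested, so these counts do not measure vessels alone. Of 19 listed as endothelial besides miR-126, 18 were on the array, 10 were tested and 0 passed, against 4.76% of all tested; 5 were detected on no array, among them miR-221 and miR-222, a pair from 1 transcript known in endothelial and smooth muscle cells. The tested members had a median log2 difference of 0.05, from −0.22 to 0.43, with 6 positive and 4 negative. The smallest p-values belonged to miR-10b, encoded in the HoxD cluster, at 0.43 (SE 0.29, limma adjusted p = 0.543), and to miR-24, of the miR-23, miR-27 and miR-24 clusters, at −0.22 (SE 0.20, limma adjusted p = 0.699). Their summed level was 1.89 to 2.14 on diabetic and 1.79 to 2.26 on control arrays (log2), which overlap.

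Of 12 listed as smooth muscle or pericyte miRNAs besides miR-143 and miR-145, 11 were on the array, 8 were tested and 0 passed, against 4.76% of all tested, with a median of −0.09 from −0.54 to 0.41. miR-26a, known from human cells to restrain smooth muscle differentiation, was at 0.41 (SE 0.21, limma adjusted p = 0.391), and miR-214, which fibroblasts also express, at −0.54 (SE 0.31, limma adjusted p = 0.43). Of the tested members, miR-24 and miR-23b stand in both vessel lists, as do the undetected miR-221 and miR-222. miR-21 and miR-214 stand in the fibroblast list too. The summed level of this list was 2.83 to 3.04 on diabetic and 2.57 to 3.08 on control arrays (log2).

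Lists of the other cells in a muscle extract were counted in the same fit, in which 4.76% of all tested passed. A listed miRNA need not come from that cell type alone, and the source of its signal was not tested, that of miR-193 included. Of 7 tested muscle fibre miRNAs 0 passed (median 0.09, from −1.33 to 0.51, 4 differences positive and 3 negative). Their summed log2 level was 6.35 to 6.79 on diabetic and 5.77 to 6.73 on control arrays, and miR-499 was detected on no array. Of 3 tested leukocyte miRNAs 0 passed, and all 3 differences were negative (median −0.80). Their summed log2 level was −2.40 to −0.67 (mean −1.74) on diabetic and −1.53 to 0.88 (mean −0.59) on control arrays, and their part in the levels of the vessel miRNAs was not tested. Of 2 erythroid miRNAs 0 passed (median −0.21), with a summed level of −0.08 to 0.81 on diabetic and 0.24 to 1.44 on control arrays. Of 5 fibroblast miRNAs 0 passed (median −0.45, 1 difference positive and 4 negative), with a summed level of 1.77 to 1.96 on diabetic and 1.62 to 2.06 on control arrays. miR-21, the positive member at 0.13, had the highest level of that list, a mean log2 of 1.51 on diabetic and 1.37 on control arrays. Of 5 adipocyte miRNAs 1 passed, miR-193, which was higher on the diabetic arrays (list median 0.32), and the summed level of the list was 0.73 to 1.08 on diabetic and −0.08 to 0.90 on control arrays. The ranges of these summed levels overlap between the groups in every list.

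The tests had 2 limits. All diabetic arrays lay in slide row 2 and all control arrays in slide row 1, so row and group cannot be told apart. The sign of differences this small depended on single arrays and on the scaling, while neither miRNA passed under any of 23 alternatives. Over these, miR-126-3p ran from −0.30 to 0.26 (limma adjusted p from 0.411 to 0.998) and miR-143 from −0.32 to 0.29 (limma adjusted p from 0.492 to 0.998). Both highest values came from dividing by the 75th percentile over all mouse probes, which also moved the median of all tested miRNAs to 0.26, so that both stayed close to that median. Both lowest values came from leaving out control 2 and diabetic 4 together, with a median of all tested miRNAs of −0.19.

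**Figure D5:**
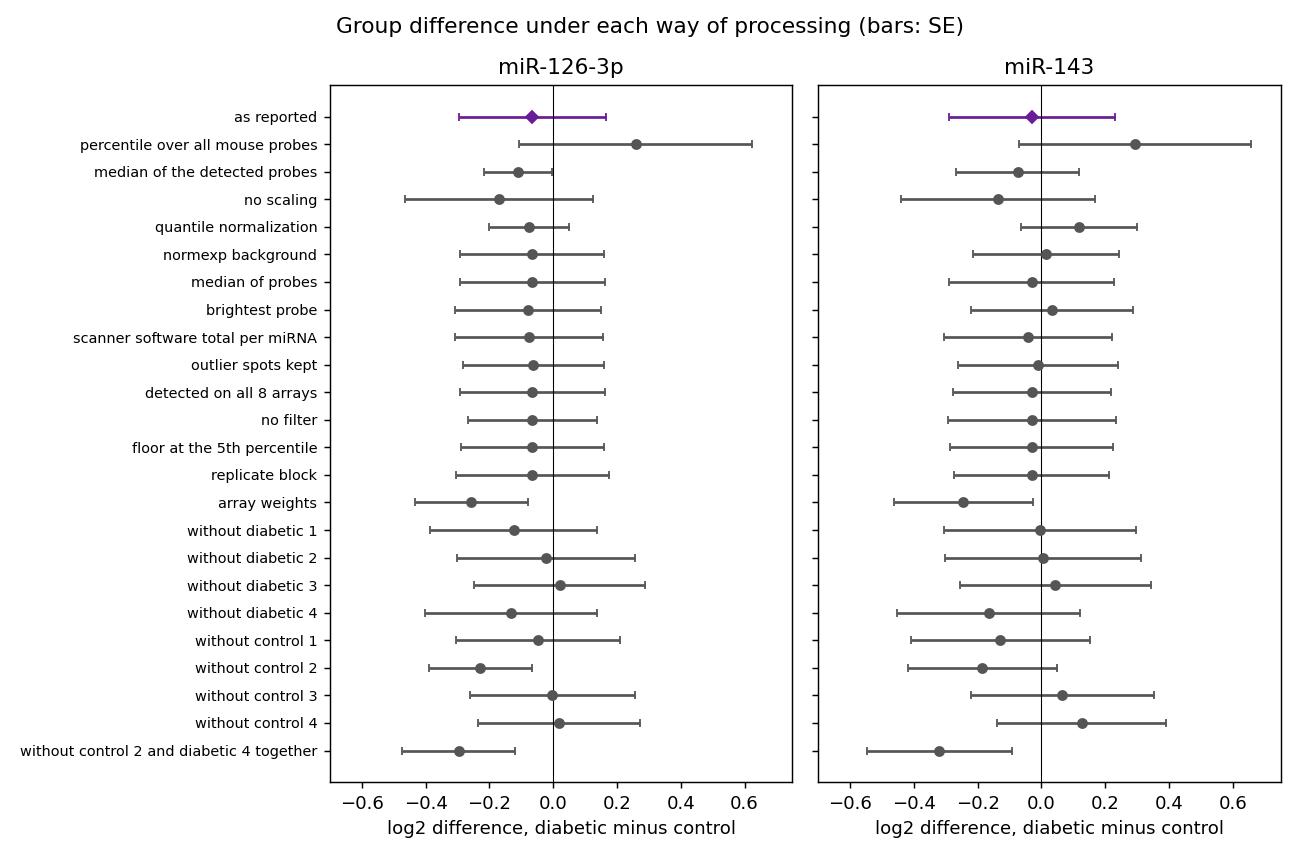
Log2 difference, diabetic minus control, of miR-126-3p (left) and miR-143 (right) as reported (purple) and under 23 other ways of processing the arrays (grey), with the SE as bars. Values lie on both sides of 0, and the highest of each panel is that of the percentile over all mouse probes.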

How the data were processed

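Total RNA of skeletal muscle (100 ng per array, per the labels' protocols) was Cy3-labelled and run on 8 Agilent miRNA arrays of 1 colour on 1 slide. Per the file headers, the deposited values are spot intensities read with Feature Extraction 10.5, after subtraction of a spatially detrended background and with no scaling between arrays, and the deposited flags mark outliers, saturation and detection. No mouse spot was saturated. Here outlier spots were dropped, spots averaged per probe, and every intensity divided by the 75th percentile that its array gave over 152 probes, those detected on each of the 8 arrays. Probes of a miRNA were averaged, any value under 0.0162 (1st percentile of the levels of detected miRNAs) was set to that value, and log2 was taken. The 126 mouse miRNAs detected on at least 4 of 8 arrays were tested with limma 3.58.1 in R 4.3.3 (lmFit, eBayes, group as the term), with Benjamini-Hochberg adjustment over all 126 and a threshold of 0.05. Simulated data with known changes tested this step. Single values were compared by exact permutation over 70 assignments. Figures used matplotlib 3.10.9. The files lack mean spot signals, so normexp (offset 50) used the median signal.

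Names in the text follow a rule: the 4 miRNAs, other strands of their hairpins, the 2 smallest p-values of the vessel lists, and, outside these 4, the 3 miRNAs most like each by Pearson's r; names outside it were chosen after their values were seen. The miRNAs and lists were chosen with earlier results of these data known. Same-numbered arrays lay in the same slide column and did not deviate together in all pairs (r over 0.1 in 2 of 4), so the numbers were not taken as pairs.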

Additional observations from a re-analysis of the deposited data

How the results depend on the processing

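Neither miR-126-3p nor miR-143 passed the threshold under any of the 23 alternatives. The difference of miR-126-3p changed sign with the percentile over all mouse probes (0.26), and ran from −0.23 (without control 2) to 0.020 (without diabetic 3) when 1 array was left out, also turning positive without control 4. That of miR-143 changed sign with the percentile over all mouse probes (0.29), quantile normalization (0.12), normexp (0.014) and the brightest probe (0.033), and ran from −0.18 (without control 2) to 0.13 (without control 4) with 1 array left out, also turning positive without diabetic 2, diabetic 3 and control 3. Array weights gave −0.26 and −0.25. The difference between the 2 miRNAs was −0.19 with quantile normalization, −0.04 with the replicate number as a block (exact sign-flip permutation p = 0.5, added after the data were seen), 0.025 without control 2 and diabetic 4 together, and ran from −0.12 to 0.081 with 1 array left out, turning positive without diabetic 4 and without control 1. The cause of these shifts was not tested. Without the filter, miR-126-5p and miR-145 lay at the floor on all arrays and gave no difference.

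The count of miRNAs higher on diabetic arrays, 6, was 0 without scaling, 2 without the filter, 2 without control 2 and diabetic 4 together, and 2 to 7 with 1 array left out (2 without control 1, control 2, diabetic 1, diabetic 2 or diabetic 3, and 3 without diabetic 4). The count lower, 0, was 1 with the percentile over all mouse probes and with array weights, 2 with the median of the detected probes, quantile normalization, the brightest probe and detection on all 8 arrays, 3 with normexp, and 0 to 3 with 1 array left out (3 without control 3, 1 without diabetic 4). With the replicate number as a block the counts were 7 higher and 3 lower, and miR-126-3p and miR-143 stayed at −0.07 and −0.03. Signal over background limits miR-126-5p and miR-145 to a bound.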

Other observations

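Set against the median of the tested miRNAs on its own array, miR-126-3p lay 3.49, 3.48, 3.49 and 3.53 above it (log2) on diabetic arrays 1 to 4, and 3.57, 3.33, 3.83 and 3.64 above it on control arrays 1 to 4. The SD was 0.021 over the diabetic arrays, the smallest of the 126 tested miRNAs, and 0.21 over the control arrays, at place 30 from the smallest. The median over all tested miRNAs was 0.20 on diabetic and 0.34 on control arrays. The groups differed by −0.10 (two-sided exact permutation p = 0.429, n = 4 each). For miR-143 the SD was 0.21 on diabetic and 0.36 on control arrays. This measure was looked at after the levels had been seen, no test of the spread was made, and an SD over 4 arrays is imprecise.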
